A study of Mus musculus with 9 samples.

Results

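This account follows 34 genes that charge transfer RNAs or supply amino acids, of 23471 genes listed in the RNA files. They were taken by name: 20 genes of cytosolic aminoacyl-tRNA synthetases, 9 genes of amino acid and one-carbon synthesis, and 5 genes of amino acid transporters of the cell surface. All 34 were listed, and all 34 passed the expression filter that left 14324 genes for testing. All cells were sorted from bone marrow that was pooled from untreated mice of the Balb/c strain, which every group shared. The ages of the mice: not given in the sources used here. Granulocyte-macrophage progenitors (GMP) carried CD34, CD16/32 and much c-kit and lacked lineage markers. Eosinophil progenitors (EoP) also lacked lineage markers and carried CD34, but with little c-kit and with CD125, the alpha chain of the interleukin-5 receptor. Mature eosinophils (Eos) carried both Siglec-F and the eotaxin receptor CCR3. Each cell type gave 2 RNA libraries, from separate sorts, and 1 library of H3K4me3, a histone mark of active promoters.

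An aminoacyl-tRNA synthetase joins an amino acid to its transfer RNA, and a cell needs the enzyme of every amino acid to translate any message. Serine is made from a glycolytic intermediate by the enzymes of Phgdh, Psat1 and Psph in turn, and the serine hydroxymethyltransferases of Shmt1 and Shmt2 pass its carbon to folate for nucleotide synthesis. Slc7a5 and Slc7a11 encode light chains of exchangers that each pair with the heavy chain of Slc3a2: the first brings in large neutral amino acids, the second brings in cystine, a source of cysteine for glutathione, and releases glutamate. In many cell types, genes of all 3 groups are targets of ATF4, the transcription factor that is translated when amino acids run short or the endoplasmic reticulum is under stress.

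More of the 34 genes changed between EoP and Eos than between GMP and EoP, and Slc7a11 went against the rest. From EoP to Eos, 18 of the 34 genes fell and 1, Slc7a11, rose. Of all 14324 genes tested, 17.7% fell and 19.1% rose at that step. The median log2 fold change of the 34 genes was −0.95, against 0.02 for all genes tested. From GMP to EoP, 2 of the 34 rose (Slc7a11 and Mthfd2) and 3 fell (Asns, Phgdh and Vars), beside 9.49% and 17.1% of all genes tested, and the median was −0.15 against −0.07 for all genes. Across the whole interval, Eos against GMP, 24 fell and 1 rose, beside 31.8% and 22.7% of all genes tested, with a median of −1.18 against −0.39. These counts rest on the quasi-likelihood test of edgeR over all genes, with 0.05 as the limit for the p adjusted by Benjamini-Hochberg. Scaling bears on them: among all genes called from GMP to EoP 35.7% rose, but 14.3% with library size alone and 87.0% on the authors' RPKM, and from EoP to Eos 51.8% rose, but 24.9% on RPKM with a pseudocount of 0.1. On those scales the median of all genes from GMP to EoP was −0.53 and 0.38. That of the 34 genes was −0.62 with library size alone, and that of the 33 tested on RPKM was 0.21. The 3 comparisons share libraries, so a gene's values in them are not independent.

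**Figure D1:**
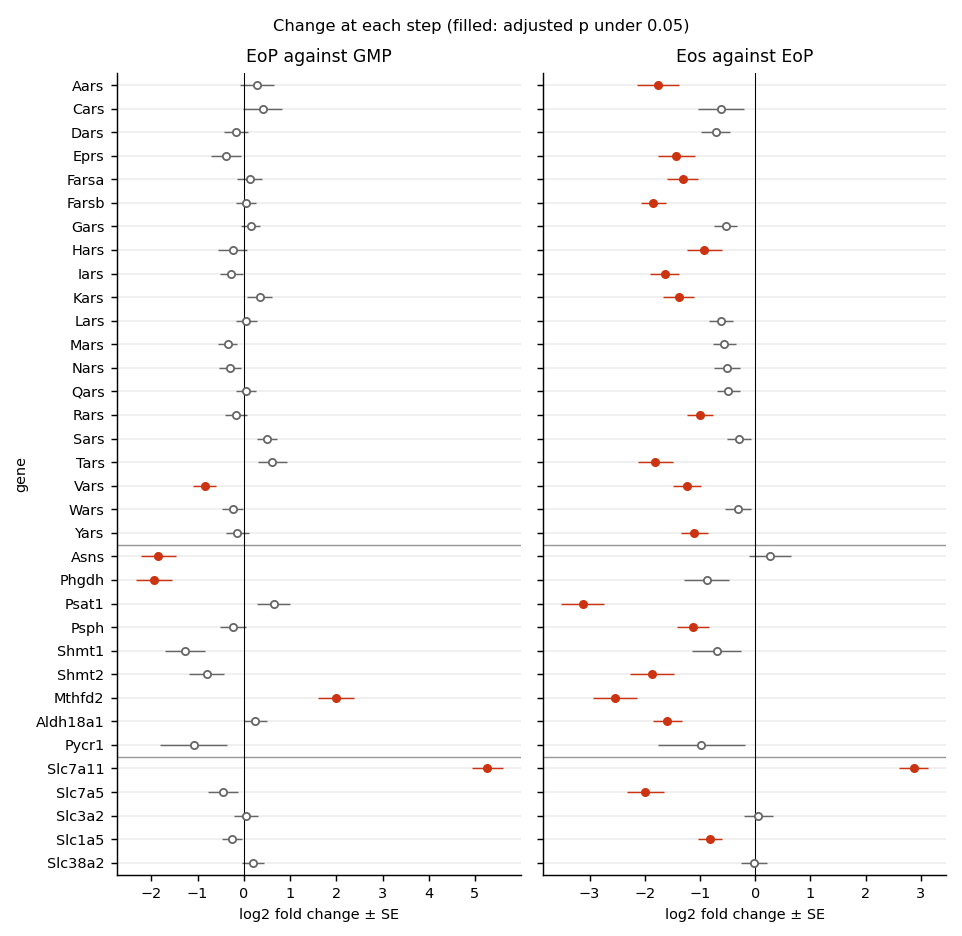
Log2 fold change with its standard error (x axis) of each of the 34 genes (y axis), for EoP against GMP on the left and Eos against EoP on the right, from 2 RNA libraries per cell type; filled red points have an adjusted p under 0.05. In the right panel all 20 synthetase genes lie left of 0 and Slc7a11 is the single filled point to the right.

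The libraries held from 5226653 to 12088134 counts, with a Pearson correlation of log2 CPM within a cell type of 0.966 to 0.974. Markers of the labelled types were present: Epx and Prg2 in EoP at 26969 and 23218 and 176395 and 137064 CPM, Ccr3 in Eos at 2272 and 2973 and Mpo in GMP at 29891 and 28329.7. All 7 Eos genes looked up were called higher in Eos than in GMP. Against EoP, Ccr3, Alox15 and Il5ra were called higher in Eos, Epx (−6.27), Ear1 (−1.91) and Ear2 (−2.08) lower, and Siglec5 did not pass. Cd34, also an EoP marker, was called lower in EoP than in GMP (−1.14). The Eos libraries also carried markers of other cells. Summed over 11 neutrophil genes, Eos held 41718 and 48235 CPM, against 277 to 2151 CPM in the other libraries. All 11 were called higher in Eos than in EoP, beside 19.1% of all genes tested. Retnlg alone gave 20590 and 35159 of the CPM in Eos, and 8 of the 11 genes were higher in Eos replicate 1 than in replicate 2. Summed over 7 GMP genes, Eos replicate 1 held 14924 and replicate 2 5320 CPM, against 42299 and 39578 in GMP and 2587 and 3198 in EoP. Within that list Mpo, Elane, Prtn3, Ctsg and Csf1r were called higher in Eos than in EoP, while Cd34 (−2.13) and Kit (−1.54), genes of the sort, were called lower. The 7 mast cell and basophil genes summed to 1068 and 1018 CPM in GMP, 922 and 3824 in EoP and 99.6 and 35.4 in Eos. Of the 6 tested, 5 were called lower in Eos than in EoP (83.3%, against 17.7% of all genes), with a median log2 fold change of −4.53. Called higher in Eos than in EoP were also 5 of 8 B and plasma cell genes tested and 5 of 7 erythroid genes. So were 5 of 7 monocyte and macrophage genes, with 1 lower, and 4 of 7 T and NK cell genes. In that order these lists summed to 154 and 71.6, 38.6 and 112, 411 and 501, and 411 and 125 CPM in Eos. The part of these cells in the results below was not tested. In bulk RNA, fewer cells of a type and less RNA per cell cannot be told apart. CPM are counts scaled to library size with TMM factors, and the text gives replicate 1 before replicate 2.

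Promoters are shown for the 5 genes that hold the C/EBP-ATF composite element, the letters to which ATF4 dimers are known to bind, and changed most from EoP to Eos, plus Asns, in which this element is best known. RefSeq promoter windows (GRCm38.p6, the build mm10; 250 bases before to 50 after the start) were matched for 25 of the 34 genes. The letters TGATGNAA, read on both strands, were found in the windows of 8 genes: Slc7a11, Aars, Gars, Iars, Tars, Yars, Asns and Pycr1. That is 32.0% of the 25, beside 3.97% of all 32851 windows. Each sequence runs 5′ to 3′ on the gene's strand from 120 bases before the RefSeq start to 30 bases into the transcript, with the element in capitals.
Slc7a11 (chr3:50443584-50443733, minus strand): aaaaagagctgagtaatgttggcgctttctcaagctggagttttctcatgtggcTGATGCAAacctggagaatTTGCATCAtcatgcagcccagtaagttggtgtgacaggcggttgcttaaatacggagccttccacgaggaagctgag
Tars (chr15:11399629-11399778, minus strand): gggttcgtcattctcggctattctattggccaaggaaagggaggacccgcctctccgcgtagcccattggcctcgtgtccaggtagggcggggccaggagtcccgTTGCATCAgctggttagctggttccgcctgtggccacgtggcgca
Aars (chr8:111033722-111033871, plus strand): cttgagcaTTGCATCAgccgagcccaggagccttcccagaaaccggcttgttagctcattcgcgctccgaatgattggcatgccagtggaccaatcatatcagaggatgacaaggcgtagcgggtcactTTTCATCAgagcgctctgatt
Iars (chr13:49682010-49682159, plus strand): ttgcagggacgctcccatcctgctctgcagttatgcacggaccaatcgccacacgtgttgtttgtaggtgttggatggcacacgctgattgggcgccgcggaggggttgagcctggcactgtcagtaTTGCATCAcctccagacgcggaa
Yars (chr4:129189783-129189932, plus strand): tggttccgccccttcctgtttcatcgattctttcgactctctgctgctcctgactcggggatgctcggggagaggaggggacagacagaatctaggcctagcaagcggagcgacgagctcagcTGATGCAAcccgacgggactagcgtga
Asns (chr6:7693180-7693329, minus strand): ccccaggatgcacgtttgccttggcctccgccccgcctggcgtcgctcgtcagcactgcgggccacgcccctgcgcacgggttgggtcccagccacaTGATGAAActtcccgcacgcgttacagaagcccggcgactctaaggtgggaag
Slc7a11 holds 2 elements on opposite strands, which begin 66 and 47 bases before the start. Aars also holds 2, at 112 before the start and at base 10 of the transcript, while the element of Tars begins 15 bases before the start and that of Asns 23 before it. In Iars and Yars it begins at bases 8 and 4 of the transcript. The RefSeq start of Yars differs from the start in the authors' files by 108 bases and that of Asns by 27.

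The genes with the element did not move in 1 direction. From EoP to Eos, 4 of the 8 fell (Aars, Iars, Tars and Yars), 1 rose (Slc7a11) and Asns, Gars and Pycr1 did not pass, with a median log2 fold change of −1.04. Of the 17 matched genes without it, 9 fell and 0 rose, with a median of −1.13. The E-box CACGTG, a MYC and USF site, was found in the windows of Aars, Aldh18a1, Farsb, Iars and Tars, 20.0% of the 25 beside 7.15% of all windows. All 5 fell from EoP to Eos, where 17.7% of all genes tested but 52.9% of the 34 genes fell. The part of the E-box in the fall was not tested. These matches describe letters in a window. They do not show that a factor binds there.

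All 20 cytosolic synthetase genes were lower in both Eos libraries than in both EoP libraries, a pattern that 35.5% of all genes tested showed. Of the 20, 11 passed the test (55.0%, against 17.7% of all genes). The summed CPM of the 20 was 1927 and 1781 in EoP and 1089 and 800 in Eos. Their summed RPKM, counts scaled by transcript length and sequencing depth, was 285 and 279 in EoP and 130 and 79.6 in Eos. On log2(RPKM + 0.5) the median of all genes fell too, by −0.54. Both sums may count Nars double, since its 2 listed transcripts carry nearly equal counts. Farsb and Farsa encode the beta and alpha subunits of phenylalanyl-tRNA synthetase. Farsb had 116 and 107 CPM in GMP, 117 and 114 in EoP and 35.6 and 28.6 in Eos, and fell 3.59-fold from EoP to Eos (log2 fold change −1.84, SE 0.22, edgeR, Benjamini-Hochberg adjusted p = 0.000273). Farsa had 79.0 and 78.7 CPM in GMP, 101 and 70.8 in EoP and 42.4 and 26.8 in Eos, and fell 2.49-fold (log2 fold change −1.31, SE 0.28, edgeR, Benjamini-Hochberg adjusted p = 0.00545). For both subunits the 2 Eos libraries lay below the other 4, and neither passed from GMP to EoP. Leaving out EoP replicate 1 ended the call of Farsa (log2 fold change −1.04, adjusted p = 0.0526), and that of Farsb held with each library left out.

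Tars, Aars and Iars, for the threonyl, alanyl and isoleucyl enzymes, are 3 of the genes whose promoters are printed above. Tars had 47.8 and 66.0 CPM in GMP, 104 and 71.2 in EoP and 31.4 and 18.4 in Eos, and fell 3.51-fold from EoP to Eos (log2 fold change −1.81, SE 0.32, edgeR, Benjamini-Hochberg adjusted p = 0.00217). Aars had 47.7 and 53.9 CPM in GMP, 62.0 and 62.4 in EoP and 26.7 and 9.94 in Eos, and fell 3.38-fold (log2 fold change −1.76, SE 0.38, edgeR, Benjamini-Hochberg adjusted p = 0.00592). Iars had 154 and 177 CPM in GMP, 143 and 132 in EoP and 54.2 and 33.6 in Eos, and fell 3.12-fold (log2 fold change −1.64, SE 0.26, edgeR, Benjamini-Hochberg adjusted p = 0.00129). In each of the 3 genes Eos replicate 2 was the lowest library and Eos replicate 1 the next. The size for Aars differed with the Eos library used: the log2 fold change was −2.66 without Eos replicate 1 and −1.22 without Eos replicate 2, called either way.

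Eprs encodes the bifunctional enzyme for glutamate and proline, and Kars the lysyl enzyme of both cytosol and mitochondria. Eprs had 266 and 319.7 CPM in GMP, 203 and 245 in EoP and 113 and 52.5 in Eos, and fell 2.70-fold from EoP to Eos (log2 fold change −1.43, SE 0.33, edgeR, Benjamini-Hochberg adjusted p = 0.00832). Kars had 65.5 and 95.6 CPM in GMP, 111 and 94.0 in EoP and 46.8 and 31.5 in Eos, and fell 2.62-fold (log2 fold change −1.39, SE 0.28, edgeR, Benjamini-Hochberg adjusted p = 0.00406). Rars, for the arginyl enzyme, had 117 and 108 CPM in GMP, 108 and 90.9 in EoP and 58.4 and 40.9 in Eos, and fell 2.00-fold (log2 fold change −1.0, SE 0.24, edgeR, Benjamini-Hochberg adjusted p = 0.00956). The call of Rars ended when EoP replicate 1 was left out (log2 fold change −0.88, adjusted p = 0.0767). Eprs, Kars, Rars and Iars all belong to the multisynthetase complex, which holds the enzymes of 8 of these genes on scaffold proteins. The other 4 genes of the complex did not pass: Dars (−0.72, adjusted p = 0.0538), Lars (−0.62, adjusted p = 0.0521), Mars (−0.56, adjusted p = 0.0562) and Qars (−0.49, adjusted p = 0.098) by edgeR with Benjamini-Hochberg adjustment. By library, Dars had 111 and 113 CPM in GMP, 94.5 and 106 in EoP and 76.2 and 45.4 in Eos. Mars had 73.6 and 70.0 CPM in GMP, 59.0 and 54.1 in EoP and 37.4 and 39.1 in Eos. Lars had 109 and 108 CPM in GMP, 100.2 and 125 in EoP and 82.0 and 64.5 in Eos, and Qars 79.8 and 87.6 CPM in GMP, 93.5 and 79.3 in EoP and 57.4 and 65.8 in Eos. All 4 were lower in both Eos libraries than in both EoP libraries, as were 35.5% of all genes tested. So 4 of 8 genes of the complex fell, with a median of −0.86. Outside it 7 of the 12 fell, with a median of −1.01. Of all genes tested 17.7% fell, and this split was chosen after the values were seen.

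Vars, for the valyl enzyme, was the synthetase gene that fell at both steps. It had 90.3 and 95.0 CPM in GMP, 50.003 and 53.1 in EoP and 26.5 and 17.3 in Eos, with the 3 cell types apart from each other. It fell 1.80-fold from GMP to EoP (log2 fold change −0.85, SE 0.25, edgeR, Benjamini-Hochberg adjusted p = 0.0292) and 2.35-fold from EoP to Eos (log2 fold change −1.23, SE 0.25, edgeR, Benjamini-Hochberg adjusted p = 0.00448). The first of these calls was lost without any one of the 4 GMP and EoP libraries (edgeR adjusted p from 0.146 without GMP replicate 1 to 0.233 without GMP replicate 2) and on log2 RPKM. Yars, for the tyrosyl enzyme, had 40.1 and 32.9 CPM in GMP, 35.7 and 30.6 in EoP and 16.7 and 14.1 in Eos, and fell 2.15-fold from EoP to Eos (log2 fold change −1.10, SE 0.25, edgeR, Benjamini-Hochberg adjusted p = 0.00745), a call that ended when EoP replicate 1 was left out (log2 fold change −1.0, adjusted p = 0.0694). Hars, for the histidyl enzyme, had 54.8 and 65.8 CPM in GMP, 56.1 and 46.1 in EoP and 35.9 and 17.9 in Eos, and its fall of 1.89-fold was the weakest call (log2 fold change −0.92, SE 0.32, edgeR, Benjamini-Hochberg adjusted p = 0.0445). It was lost without either EoP library, either GMP library or Eos replicate 2, where the log2 fold change was −0.51 (adjusted p = 0.147); without Eos replicate 1 it was −1.53. It was also lost under 6 of 13 other settings: the DESeq2 Wald test, DESeq2 size factors, a minimum of 50 counts, library size alone, unfiltered RPKM, and a fit of the compared groups only.

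The other 5 synthetase genes, which did not pass from EoP to Eos, differed by less than the 11 that fell. Sars (−0.30, SE 0.22) and Wars (−0.31, SE 0.23), for the seryl and tryptophanyl enzymes, had the smallest log2 fold changes. Sars had 32.4 and 35.2 CPM in GMP, 50.6 and 45.4 in EoP and 41.7 and 36.4 in Eos, so that its Eos libraries lay above both GMP libraries. Gars, for the glycyl enzyme, which like Kars serves cytosol and mitochondria, had 72.0 and 70.8 CPM in GMP, 79.4 and 78.7 in EoP and 58.8 and 50.3 in Eos (log2 fold change −0.53, SE 0.21, edgeR, Benjamini-Hochberg adjusted p = 0.0677). Nars and Cars, for the asparaginyl and cysteinyl enzymes, had log2 fold changes of −0.51 and −0.62, the second from 17.7 and 11.9 CPM in EoP to 9.84 and 9.35 in Eos. Wars had 43.0 and 40.7 CPM in GMP, 34.6 and 36.2 in EoP and 31.8 and 25.1 in Eos. On the authors' RPKM, where the median of all genes itself lay at −0.54, 8 of these 9 genes passed from EoP to Eos and Cars did not (limma on log2(RPKM + 0.5), adjusted p from 0.00493 for Qars to 0.0317 for Wars).

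Against GMP, 14 of the 20 synthetase genes (70.0%) were lower in Eos and 0 higher, beside 31.8% and 22.7% of all genes tested. They were the 11 above with Dars (log2 fold change −0.88, SE 0.26, edgeR, Benjamini-Hochberg adjusted p = 0.0177), Mars (log2 fold change −0.91, SE 0.21, edgeR, Benjamini-Hochberg adjusted p = 0.00572) and Nars (log2 fold change −0.81, SE 0.23, edgeR, Benjamini-Hochberg adjusted p = 0.0155). Nars had 309 and 355 CPM in GMP, 306 and 234 in EoP and 205 and 173 in Eos, and did not pass at either single step. The largest fall across the interval was that of Vars, 4.22-fold (log2 fold change −2.08, SE 0.26, edgeR, Benjamini-Hochberg adjusted p = 0.000192). GMP replicate 2 weighed on this comparison, over all genes tested as well as over the 34: without it fewer of both were called lower. The calls of Aars, Dars, Farsa, Hars, Kars, Mars, Nars and Tars were lost. The median log2 fold change without it was −0.99 for the 34 genes and −0.19 for all genes. With all libraries the medians were −1.18 and −0.39. In that fit the log2 fold change was −0.58 for Kars and −0.78 for Tars. Without Eos replicate 2 it was −0.90 for Aars, −0.53 for Dars (adjusted p = 0.0611 by edgeR) and −0.72 for Hars, and without Eos replicate 1 it was −2.34 for Aars. Dars and Nars were also lost without GMP replicate 1 (adjusted p = 0.083 and 0.0552) and without EoP replicate 2 (0.0744 and 0.0799).

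**Figure D2:**
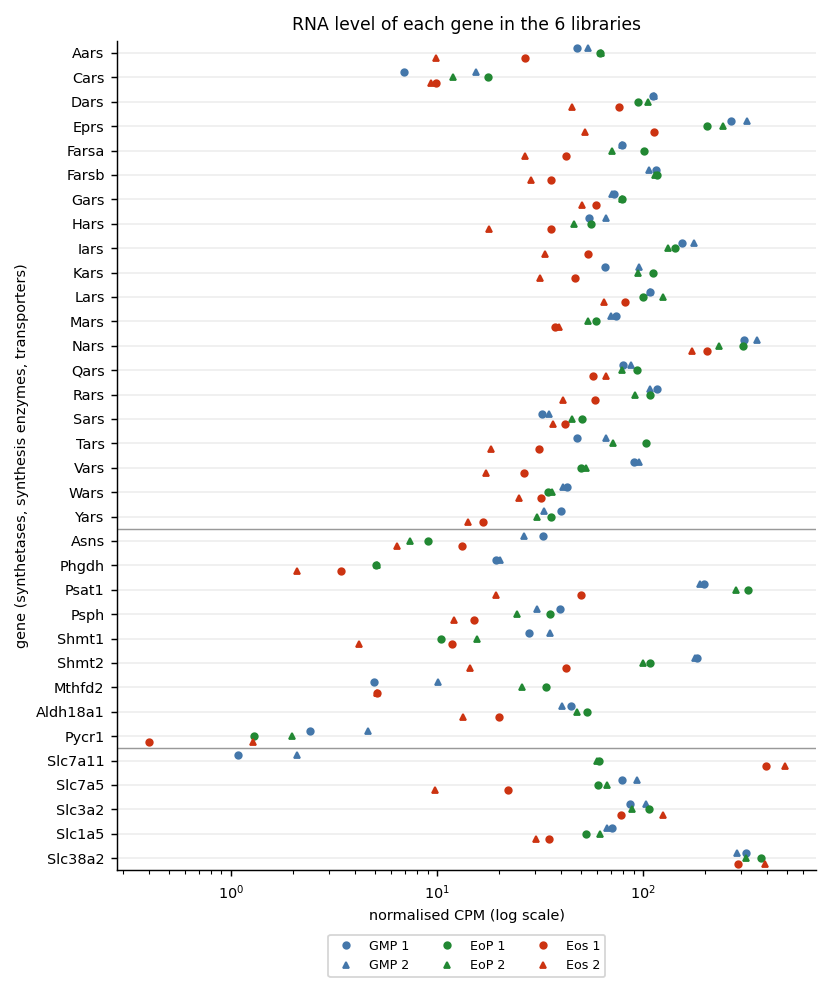
Normalised CPM on a log scale (x axis) of each of the 34 genes (y axis; synthetases above, synthesis enzymes in the middle, transporters below, parted by grey lines), 1 point per RNA library, circles for replicate 1 and triangles for replicate 2. For most genes both red Eos points lie left of the blue GMP and green EoP points, with Eos replicate 2 usually the lower, and for Slc7a11 the order is turned round.

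Per transcript length the synthetase genes covered a wide range. Nars had the highest summed level in all 3 cell types, at 42.5 ± 3.15 RPKM in GMP, 42.5 ± 5.46 in EoP and 21.3 ± 5.50 in Eos (SD, n = 2). Its 2 listed transcripts carry nearly equal counts, and the larger alone gives 21.3, 21.3 and 10.7 RPKM, so the level depends on whether reads were split or listed under both. At the lower values its first place in EoP would not hold, since Farsb had 21.4 RPKM there. Cars was lowest throughout, at 1.28 ± 0.653, 2.08 ± 0.449 and 0.961 ± 0.178 RPKM. Next to Nars stood Eprs in GMP (20.5 ± 2.15 RPKM), Farsb in EoP (21.4 ± 0.748) and Dars in Eos (8.32 ± 4.06). Neighbours in the middle of the order did not differ beyond their spread: in EoP the libraries of Farsb, Kars, Farsa, Eprs, Rars and Dars overlapped from each to the next, between 21.4 and 18.9 RPKM, and in Eos every neighbouring pair below Nars overlapped.

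Of the 3 genes of serine synthesis, Phgdh fell from GMP to EoP, and Psat1 and Psph fell from EoP to Eos. Phgdh, for the first, had 19.2 and 20.3 CPM in GMP, 5.07 and 5.14 in EoP and 3.41 and 2.10 in Eos, and fell 3.86-fold from GMP to EoP (log2 fold change −1.95, SE 0.39, edgeR, Benjamini-Hochberg adjusted p = 0.0076). It then did not pass from EoP to Eos (log2 fold change −0.88, SE 0.41, edgeR, Benjamini-Hochberg adjusted p = 0.115). Psat1 (mm10 chr19:15905123-15925059, minus strand), for the second, had 198 and 188 CPM in GMP, 324 and 282 in EoP and 49.9 and 19.3 in Eos, and fell 8.74-fold from EoP to Eos (log2 fold change −3.13, SE 0.39, edgeR, Benjamini-Hochberg adjusted p = 0.000359), the largest fall among the 34 genes. Its difference between GMP and EoP did not pass (log2 fold change 0.65, SE 0.36, edgeR, Benjamini-Hochberg adjusted p = 0.214), although both EoP libraries lay above both GMP libraries. Psph, for the third, had 39.6 and 30.7 CPM in GMP, 35.4 and 24.5 in EoP and 15.2 and 12.0 in Eos, and fell 2.19-fold from EoP to Eos (log2 fold change −1.13, SE 0.29, edgeR, Benjamini-Hochberg adjusted p = 0.0125), a call that ended when EoP replicate 1 was left out (log2 fold change −0.86, adjusted p = 0.13). In EoP the second enzyme's gene thus stood at 58.3 ± 2.20 RPKM and the first's at 1.14 ± 0.0819, against 30.2 ± 1.89 and 3.58 ± 0.0403 in GMP (SD, n = 2). The call of Phgdh into EoP was lost without any one of the 4 libraries compared (adjusted p from 0.0514 without EoP replicate 1 to 0.0721 without GMP replicate 2), while the fall of Psat1 held with each library left out.

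Mthfd2 and Shmt2 encode folate enzymes of the mitochondrion, and both fell from EoP to Eos. Mthfd2, whose enzyme oxidises mitochondrial methylene-folate, had 4.96 and 10.1 CPM in GMP, 33.7 and 26.0 in EoP and 5.12 and 5.14 in Eos, which set EoP above both other cell types. It rose 3.97-fold from GMP to EoP (log2 fold change 1.99, SE 0.39, edgeR, Benjamini-Hochberg adjusted p = 0.00694) and fell 5.8-fold from EoP to Eos (log2 fold change −2.54, SE 0.40, edgeR, Benjamini-Hochberg adjusted p = 0.00122). The rise was lost without GMP replicate 1 (log2 fold change 1.56, adjusted p = 0.0672); the fall held with each library left out. Shmt2, for the mitochondrial serine hydroxymethyltransferase, had 183 and 179 CPM in GMP, 107 and 100.2 in EoP and 42.3 and 14.5 in Eos, and fell 3.64-fold from EoP to Eos (log2 fold change −1.87, SE 0.40, edgeR, Benjamini-Hochberg adjusted p = 0.00545), or −2.85 on the log2 scale without Eos replicate 1. It did not pass from GMP to EoP (log2 fold change −0.80, edgeR, Benjamini-Hochberg adjusted p = 0.151). Its 2 listed transcripts carry nearly equal counts, as with Nars, so its CPM and RPKM may be counted double. Across the interval it fell 6.36-fold (log2 fold change −2.67, SE 0.41, edgeR, Benjamini-Hochberg adjusted p = 0.000688). Its cytosolic counterpart Shmt1 had 28.1 and 35.5 CPM in GMP, 10.5 and 15.7 in EoP and 11.8 and 4.21 in Eos; the difference between GMP and EoP did not pass (log2 fold change −1.27, SE 0.44, edgeR, Benjamini-Hochberg adjusted p = 0.0561), and Eos was lower than GMP (log2 fold change −1.97, SE 0.45, edgeR, Benjamini-Hochberg adjusted p = 0.00567), lost without GMP replicate 2 (log2 fold change −1.64, adjusted p = 0.0579).

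Asns, for asparagine synthetase, had 32.7 and 26.4 CPM in GMP, 9.08 and 7.37 in EoP and 13.3 and 6.43 in Eos. It fell 3.6-fold from GMP to EoP (log2 fold change −1.85, SE 0.38, edgeR, Benjamini-Hochberg adjusted p = 0.0089), where neither EoP library reached a GMP library, and the Eos libraries straddled those of EoP (log2 fold change 0.27, SE 0.38, edgeR, Benjamini-Hochberg adjusted p = 0.604). The call into EoP was lost without EoP replicate 2 (adjusted p = 0.0827 by edgeR), GMP replicate 1 (0.0883) or GMP replicate 2 (0.0529). The call of Eos against GMP (log2 fold change −1.58, SE 0.38, edgeR, Benjamini-Hochberg adjusted p = 0.00696) was lost without GMP replicate 1 (0.0583). Of the proline enzymes, Aldh18a1, for the first, had 44.5 and 40.5 CPM in GMP, 53.3 and 48.0 in EoP and 20.1 and 13.3 in Eos, and fell 3.02-fold from EoP to Eos (log2 fold change −1.60, SE 0.26, edgeR, Benjamini-Hochberg adjusted p = 0.00149), a call that held with each library left out. Both of its listed transcripts carry equal counts, so its level may be counted double too. Pycr1, for the last, was the least abundant synthesis gene, with 2.42 and 4.62 CPM in GMP, 1.30 and 1.97 in EoP and 0.402 and 1.29 in Eos. Only Eos against GMP passed for it (log2 fold change −2.06, SE 0.78, edgeR, Benjamini-Hochberg adjusted p = 0.046), and that call was lost with 5 of the 6 libraries left out in turn, all but Eos replicate 2, with a log2 fold change of −1.36 without GMP replicate 2.

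Mthfd2 did not pass in Eos against GMP (log2 fold change −0.54, SE 0.40, edgeR, Benjamini-Hochberg adjusted p = 0.263). The other 8 of the 9 synthesis genes were lower in Eos (88.9%, against 31.8% of all genes tested). Besides those given above they were Phgdh (−2.83), Psat1 (−2.48), Psph (−1.37) and Aldh18a1 (−1.35), each a call that held with every library left out in turn. Phgdh had the largest fall of the 34 genes across that interval.

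**Figure D3:**
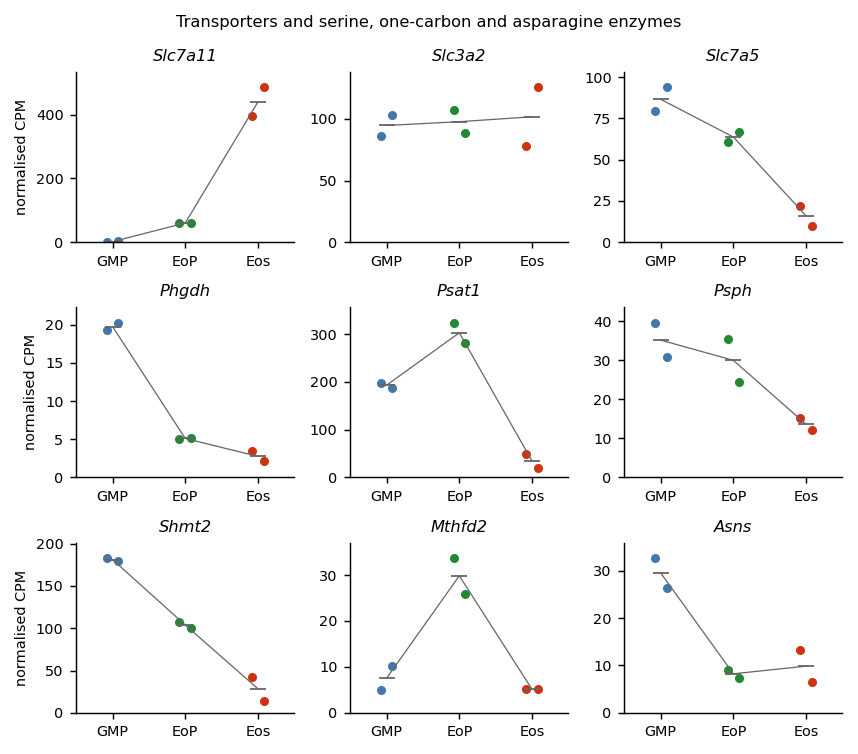
Normalised CPM (y axis, from 0, with its own scale in each panel) in GMP, EoP and Eos for 9 genes, 1 point per RNA library (2 per cell type, replicate 1 on the left), with the means marked by a dash and joined by a line. Slc7a11 climbs at both steps, the cell types overlap for Slc3a2, Psat1 and Mthfd2 peak in EoP, and Phgdh and Asns drop already from GMP to EoP.

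Slc7a11 (mm10 chr3:50364936-50443613, minus strand), for the light chain of the cystine and glutamate exchanger xCT, rose at both steps. It had 1.09 and 2.09 CPM in GMP, 61.0 and 59.6 in EoP and 395 and 486 in Eos, with no overlap between any of the cell types. It rose 38.4-fold from GMP to EoP (log2 fold change 5.26, SE 0.33, edgeR, Benjamini-Hochberg adjusted p = 2.36e-05), 7.31-fold from EoP to Eos (log2 fold change 2.87, SE 0.26, edgeR, Benjamini-Hochberg adjusted p = 6.48e-05) and 281-fold over the interval (log2 fold change 8.13, SE 0.36, edgeR, Benjamini-Hochberg adjusted p = 1.37e-06). The GMP level rested on few reads, 9 and 14 counts. All 3 calls held with each library left out and under every other setting run. Slc7a5 (mm10 chr8:121881146-121907686, minus strand), for the light chain LAT1 of the exchanger of large neutral amino acids, went the other way. It had 79.3 and 93.7 CPM in GMP, 60.4 and 66.9 in EoP and 22.1 and 9.82 in Eos, and fell 3.97-fold from EoP to Eos (log2 fold change −1.99, SE 0.34, edgeR, Benjamini-Hochberg adjusted p = 0.00188), with both Eos libraries below the other 4.

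Slc3a2, for CD98, the heavy chain shared by those light chains, did not pass at either step. It had 86.2 and 103 CPM in GMP, 107 and 88.5 in EoP and 77.9 and 126 in Eos, with the Eos libraries on either side of both other cell types (log2 fold change 0.06, SE 0.26, edgeR, Benjamini-Hochberg adjusted p = 0.889). Per length, the heavy chain stood at 12.4 ± 1.41 RPKM in GMP, 15.7 ± 1.27 in EoP and 11.5 ± 2.26 in Eos. Slc7a5 went from 8.35 ± 0.776 to 7.61 ± 1.02 and 1.40 ± 0.917 RPKM, and Slc7a11 from 0.0581 ± 0.0245 to 2.74 ± 0.124 and 14.0 ± 0.111 (SD, n = 2). So Slc7a5 was the more abundant light chain in GMP and EoP and Slc7a11 in Eos, where the libraries of both genes did not overlap. Slc1a5, for the glutamine carrier ASCT2, had 70.6 and 66.6 CPM in GMP, 52.8 and 61.9 in EoP and 34.8 and 30.2 in Eos, and fell 1.76-fold from EoP to Eos (log2 fold change −0.82, SE 0.22, edgeR, Benjamini-Hochberg adjusted p = 0.0157), a call that ended when EoP replicate 1 was left out (log2 fold change −0.94, adjusted p = 0.0513), or EoP replicate 2 (log2 fold change −0.68, adjusted p = 0.144). Against GMP, Slc7a5 (−2.43) and Slc1a5 (−1.08) were lower in Eos. Slc38a2, for the sodium-coupled carrier SNAT2 of small neutral amino acids, was the most abundant per length of these 5 transporters in all 3 cell types, at 22.1 ± 2.10, 31.0 ± 1.61 and 21.4 ± 1.61 RPKM. It had 316 and 286 CPM in GMP, 371 and 316 in EoP and 289 and 391 in Eos, and did not pass (log2 fold change −0.02, SE 0.24, edgeR, Benjamini-Hochberg adjusted p = 0.979). On log2 RPKM it fell by 0.52 (limma, Benjamini-Hochberg adjusted p = 0.044), about the median of all genes on that scale.

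The Eos libraries differed from each other in the same direction for most of these genes. Of the 34 genes, 27 were higher in Eos replicate 1 than in replicate 2, with a median ratio of 1.34 (on CPM + 1); of all genes tested 50.2% were, with a median ratio of 1.0. Among the 18 genes that fell from EoP to Eos, 17 were higher in replicate 1, with a median ratio of 1.53. All 12 proliferation markers were higher in replicate 1, with a median ratio of 2.17, and so were 6 of the 7 GMP markers. Slc7a11, Slc3a2 and Slc38a2 were lower in replicate 1. Whether dividing or GMP-type cells in Eos replicate 1 bear on the levels was not tested. The median log2 fold change of the 34 genes from EoP to Eos was −1.29 without Eos replicate 1 and −0.74 without Eos replicate 2. Over all genes tested it was 0.0 in both fits.

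The proliferation markers themselves fell with the synthetases. Of 12, 12 fell from EoP to Eos and 0 rose, with a median log2 fold change of −1.62, led by Mcm2 (−2.08), Mcm5 (−2.05), Top2a (−1.91) and Pcna (−1.88). Of all genes tested, 17.7% fell and 19.1% rose at that step. From GMP to EoP, Top2a (1.01) and Pcna (0.79) rose, calls that each ended without any one of the 4 libraries compared. The part of dividing cells in the fall of the synthetase genes was not tested. Of 17 mitochondrial synthetase genes, 7 fell from EoP to Eos (41.2%, against 17.7% of all genes) and 0 rose, with a median of −1.01. Aars2 (−1.80), Vars2 (−1.62), Nars2 (−1.42) and Yars2 (−1.31) were the largest. More of the 17 fell without Eos replicate 1 and fewer without any other single library, as over all genes tested. Of the 4 named, Yars2 held with each library left out, and the log2 fold change of Nars2 was −2.32 without Eos replicate 1 and −0.88, not called, without Eos replicate 2. From GMP to EoP 0 of the 17 passed in edgeR, where 9.49% of all genes tested rose and 17.1% fell. Lars2 stood apart from the other 16 in level, with 2608 and 2997 CPM in GMP, 4012 and 2888 in EoP and 3889 and 2579.7 in Eos.

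From EoP to Eos 17.7% of all genes tested fell. Of 8 genes for scaffold proteins of the complex, editing of mischarged transfer RNA and related proteins, 3 fell at that step (37.5%). They were Eef1e1, a scaffold protein, with 22.8 and 19.7 CPM in GMP, 22.6 and 20.6 in EoP and 6.93 and 5.26 in Eos (log2 fold change −1.82, SE 0.31, edgeR, Benjamini-Hochberg adjusted p = 0.00179), the alanine editing gene Aarsd1 (−1.76) and the threonyl paralog Tarsl2 (−1.18). Tarsl2 lost its call without EoP replicate 2 or Eos replicate 2. The scaffold genes Aimp1 (−0.54) and Aimp2 (−0.59) did not pass at that step. Dtd1, whose enzyme removes D-amino acids from transfer RNA, fell from GMP to EoP (log2 fold change −1.40, SE 0.35, edgeR, Benjamini-Hochberg adjusted p = 0.0177), a call that ended without any one of those 4 libraries. Of 7 genes of translation elongation, 5 fell from EoP to Eos (71.4%), led by Eef1g (−1.31), Eef1b2 (−1.30), Eif5a (−1.18) and Eef1a1 (−1.07). The counting may split reads of Eef1a1 with its copies elsewhere in the genome. Without EoP replicate 1 fewer of the 7 fell, as over all genes tested, and Eef1b2 and Eef1a1 were among those lost. Eef2k, for the kinase that inhibits elongation factor 2, rose at both steps, with 95.4 and 67.6 CPM in GMP, 185 and 176 in EoP and 268 and 349.7 in Eos (log2 fold change 0.77, SE 0.24, edgeR, Benjamini-Hochberg adjusted p = 0.0319). Its second rise was lost without either EoP library or Eos replicate 2, its first without EoP replicate 1 or GMP replicate 2. The second was also lost with library size alone and on RPKM with either pseudocount or no filter.

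The genes of the ATF4 pathway did not move as 1 group. Atf4 itself had 173 and 277 CPM in GMP, 627 and 277 in EoP and 170.3 and 208 in Eos, with EoP replicate 1 above the other 5 libraries, and fell 2.39-fold from EoP to Eos (log2 fold change −1.26, SE 0.38, edgeR, Benjamini-Hochberg adjusted p = 0.0254). Without EoP replicate 1 the log2 fold change was −0.57 and the call was lost (adjusted p = 0.278). Ddit3, for the stress factor CHOP, was also uneven between the EoP libraries, with 4.72 and 5.66 CPM in GMP, 50.7 and 8.49 in EoP and 9.44 and 17.2 in Eos (log2 fold change 2.5, SE 0.70, edgeR, Benjamini-Hochberg adjusted p = 0.0256 for EoP against GMP). Without EoP replicate 1 its log2 fold change was 0.74, and the call was lost there and without either GMP library. Atf3 was high in GMP replicate 2 alone, at 1.57 and 33.4 CPM in GMP, and Trib3, below 2 CPM in all libraries, was not tested. Of the 4 kinases that start the response, Eif2ak3 (PERK) rose from GMP to EoP (0.82) and Eif2ak1 (HRI) rose from EoP to Eos (0.76), while Eif2ak2 and Eif2ak4, the latter for the amino acid sensor GCN2, passed at neither step. Of 14 tested kinases and regulators 2 rose (14.3%, against 19.1% of all genes) and 1 fell (7.14%, against 17.7%) from EoP to Eos, with a median of 0.22. On the authors' RPKM 0 rose and 1 fell by limma, with a median of −0.21 at a pseudocount of 0.5, where all genes had −0.54. In edgeR Cebpg, for a dimer partner of ATF4, was the other gene that rose (0.85). How many of the 14 passed from EoP to Eos differed with the library left out, as it did over all genes tested. Without EoP replicate 1 the calls of Atf4, Cebpg and Eif2ak1 at that step were lost in edgeR. The call of Eif2ak1 was also lost without EoP replicate 2, Eos replicate 2 or either GMP library. That of Eif2ak3 ended without any one of the GMP and EoP libraries.

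Of 16 other ATF4 targets tested, 4 rose (25%, against 19.1% of all genes) and 6 fell (37.5%, against 17.7%) from EoP to Eos, with a median of −1.05. With each library left out in turn these counts differed, as did those over all genes tested, while Sesn2, Mthfd1l and Gpt2 passed each time. Sesn2, for a leucine sensor of the mTORC1 pathway, had 6.54 and 5.07 CPM in GMP, 8.37 and 6.17 in EoP and 25.1 and 34.5 in Eos, and rose 4.11-fold (log2 fold change 2.04, SE 0.34, edgeR, Benjamini-Hochberg adjusted p = 0.00176). Mthfd1l, for mitochondrial formate production, had 97.8 and 101 CPM in GMP, 81.8 and 96.3 in EoP and 26.4 and 12.3 in Eos, and fell 4.59-fold (log2 fold change −2.20, SE 0.33, edgeR, Benjamini-Hochberg adjusted p = 0.000984). Gpt2 (−2.61) and Vldlr (−3.04) fell from low levels, Vldlr from 30 and 22 counts in EoP to 6 and 0 in Eos, where the call of Vldlr was lost with any library but Eos replicate 1 left out. Chac1, whose enzyme breaks down glutathione, was called lower in EoP than in GMP and higher in Eos than in EoP on 28 and 10 counts in GMP, 3 and 0 in EoP and 21 and 11 in Eos. The first of these calls was lost without EoP replicate 2 or either GMP library, and the second with any library but EoP replicate 1 left out. Herpud1 rose from GMP to EoP (1.5), with EoP at 276 and 84.9 CPM; without EoP replicate 1 its log2 fold change was 0.45, and the call was lost there and without either GMP library.

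Among 26 other amino acid and folate enzymes tested, 5 rose (19.2%, against 19.1% of all genes) and 8 fell (30.8%, against 17.7%) from EoP to Eos, with a median of −0.50. Both counts differed with the library left out, as did those over all genes tested. Arg2, for mitochondrial arginase, had 1.21 and 0.447 CPM in GMP, 0.943 and 0.60 in EoP and 54.8 and 120.2 in Eos, and rose 114-fold (log2 fold change 6.84, SE 0.54, edgeR, Benjamini-Hochberg adjusted p = 3.19e-05). Glul, for glutamine synthetase, had 49.7 and 50.9 CPM in GMP, 28.7 and 25.7 in EoP and 98.4 and 94.0 in Eos, and rose 3.54-fold (log2 fold change 1.82, SE 0.21, edgeR, Benjamini-Hochberg adjusted p = 0.000259), after a fall from GMP to EoP (−0.89). Arg1 rose on at most 26 counts in a library (2.32), and Tyms, for thymidylate synthase, which uses folate carbon, fell (−2.05). The call of Arg1 was lost with any library left out, and that of Arg2 held with each. From GMP to EoP, Bcat1, for branched-chain transamination, fell (−2.81), as did Gclm, a subunit of the enzyme that starts glutathione synthesis (−1.01), and Got2 (−0.98), while Glud1, for glutamate dehydrogenase, rose (1.04). The calls of Gclm, Got2, Glud1 and Glul at this step ended without any one of the 4 libraries compared, and that of Bcat1 without EoP replicate 2 or GMP replicate 2.

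Of 15 other amino acid transporter genes tested, 6 rose (40.0%, against 19.1% of all genes) and 4 fell (26.7%, against 17.7%) from EoP to Eos, with a median of 0.24. Fewer rose and fewer fell without either EoP library, as over all genes tested. The 4 genes of this list named for that step passed with each library left out. Slc43a2, for the branched-chain carrier LAT4, had 47.9 and 34.1 CPM in GMP, 24.9 and 29.3 in EoP and 148 and 174 in Eos, and rose 5.92-fold (log2 fold change 2.57, SE 0.25, edgeR, Benjamini-Hochberg adjusted p = 0.000105). Slc7a6, a further light chain that pairs with Slc3a2, had 48.2 and 40.1 CPM in GMP, 37.3 and 36.8 in EoP and 9.64 and 3.04 in Eos, and fell 5.77-fold (log2 fold change −2.53, SE 0.43, edgeR, Benjamini-Hochberg adjusted p = 0.00176). Slc7a7, also a partner of Slc3a2, and the arginine carrier gene Slc7a2 dipped in EoP. Slc7a7 had 15.7 and 8.64 CPM in GMP, 0.354 and 0.686 in EoP and 10.6 and 4.44 in Eos and Slc7a2 20.0 and 10.7 CPM in GMP, 0.236 and 0.171 in EoP and 4.32 and 3.04 in Eos; both fell from GMP to EoP (−4.47 and −6.17) and rose from EoP to Eos (3.78 and 4.12). Slc6a6, for the taurine carrier, was higher in Eos than in GMP (2.14), with 134 and 159 CPM in GMP, 109.7 and 147 in EoP and 512 and 782 in Eos.

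All 34 genes had an H3K4me3 promoter peak in each of the 3 peak lists. Among all genes tested for RNA, 81.4% had one in GMP, 74.1% in EoP and 76.2% in Eos. With 1 library per cell type there is no replicate and no test, and the authors' fold enrichment of a peak is used only within its list. The strongest peak of the 34 genes had a median fold enrichment of 11.1 in GMP, 9.38 in EoP and 10.4 in Eos, against 9.73, 8.15 and 9.14 over all genes with a promoter peak. So the mark was present at genes that fell as well as at genes that did not. Shared promoters limit 7 of the genes, whose peaks are also annotated to a neighbour: Hars with Hars2, Kars with Terf2ip, Wars with Wdr25, Yars with S100pbp, Psph with Cct6a, Slc7a5 with BC048644 and Slc3a2 with Snhg1.

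Pycr1 and Asns had the lowest fold enrichments of the 34 genes in EoP, and Pycr1, Phgdh and Asns in Eos; in GMP Vars had, at 4.39. Pycr1 had a fold enrichment of 7.06 in GMP, at percentile 22.4 of genes with a promoter peak, 4.3 in EoP and 3.44 in Eos, at percentiles 2.84 and 3.32. The Asns peak stood at percentile 55.0 in GMP (10.2-fold, 553 bases long), 3.95 in EoP (4.51-fold, 156 bases) and 11.1 in Eos (5.04-fold, 163 bases). Phgdh stood at percentile 53.1 in GMP, 41.2 in EoP and 3.32 in Eos, where it had 2 short peaks. Psat1 stood at percentiles 66.1, 69.3 and 17.7. The lists differ in length and come from 1 library each, so these ranks show no change in the mark and are not set against the RNA.

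Aars, Mthfd2 and Cars were among the genes that ranked high in every list. Aars stood at percentile 98.4 in GMP, 96.2 in EoP and 98.5 in Eos, and Mthfd2 at 98.7, 88.3 and 98.4. Cars, the synthetase gene with the lowest RPKM, stood at 99.3, 86.9 and 97.9, and Dars at 84.9, 79.8 and 89.7. Slc7a11 stood at percentile 49.8 in GMP (9.7-fold), at 9.37 in EoP (5.22-fold) and at 24.6 in Eos (6.82-fold). Its peaks in GMP and EoP lay on both sides of the start, up to 601 bases before it, and in Eos a single peak of 745 bases ran from 20 to 764 bases after it. Slc3a2 had the longest total of promoter peaks of the 34 genes in all 3 lists, 3443, 1821 and 1852 bases. That total joins peaks near the separate starts of its 2 listed transcripts. Near the start of the more abundant transcript, the peak was 1465 bases long in GMP and 722 in EoP. In Eos the peaks there were 699 and 136 bases long. The single peak of Slc1a5 was longer in each list, at 2040 bases in GMP, 1286 in EoP and 1517 in Eos.

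**Figure D4:**
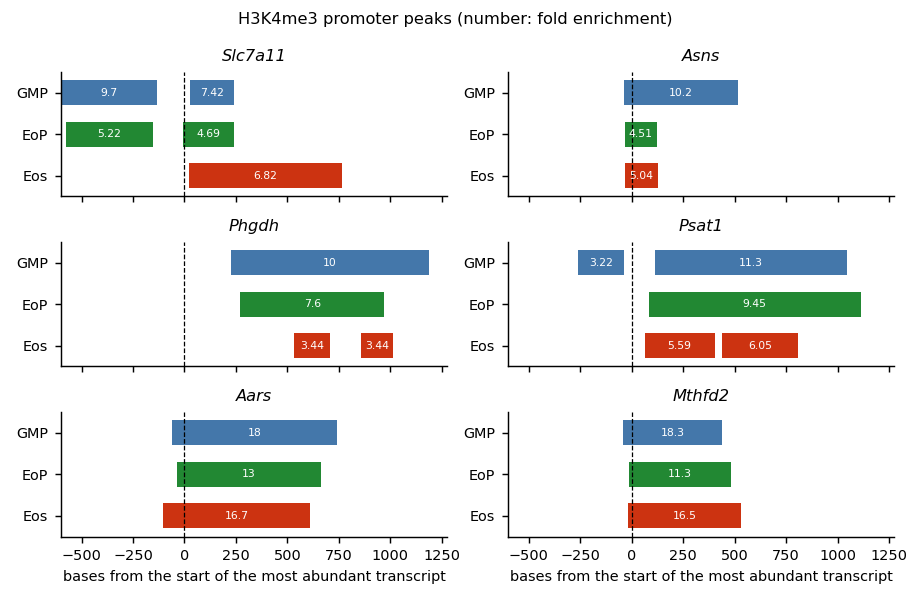
H3K4me3 promoter peaks of 6 genes as bars along the distance in bases from the start of the most abundant transcript (x axis, dashed line at 0), for GMP, EoP and Eos (rows), with the authors' highest fold enrichment in each peak printed on it; 1 library per cell type. The Asns peak is shorter in EoP and Eos than in GMP, Phgdh has 2 short peaks in Eos, and the Slc7a11 start lies in a gap between peaks in GMP.

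Of the 10 C/EBP-ATF elements in the 8 windows, 4 lay inside a promoter peak of the gene in GMP, 4 in EoP and 3 in Eos. Those of Iars and Tars and the second of Aars lay inside in all 3 lists, and that of Yars in GMP and EoP. Both elements of Slc7a11 lay outside, 31 to 79 bases from the nearest peak. The element of Asns lay outside by 6 bases in GMP and by 10 in EoP and Eos.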

How the data were processed

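RNA of 6 libraries (2 each of GMP, EoP and Eos) and H3K4me3 of 3 (1 each) were analysed, grouped by title. The 34 genes and all lists were chosen with earlier results of these data known. Per the file headers, the authors' RNA files give an estimated count (whole numbers) and an RPKM per transcript; the submitters' processing notes name STAR 2.4.0c, Bowtie 1.0.0 and mm10, with no role. Counting tool, strand use and peak caller: not given in the sources used here. From the ratio of counts to RPKM, the deposited RPKM are relative to more reads than were counted: summed counts are 26.0% to 45.5% of them. The deposited peak lists hold, per the file headers, each summit's pileup signal, −log10 p and q and fold enrichment, with 1 list per library; their read depth is unknown. Counts and RPKM were summed per gene symbol (31213 lines, 23471 genes).

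The test was the quasi-likelihood test of edgeR 4.0.16 (R 4.3.3) on the counts, after its default filter, with TMM factors and 1 fit of 6 libraries with cell type as the term (3 residual degrees of freedom), and checked on simulated data. The limit for a call was 0.05 after Benjamini-Hochberg adjustment. The sorts are not said to come from different animals, so p-values measure only how far these samples spread. Alternatives used DESeq2 1.42.0 and limma 3.58.1. Text values were chosen by 1 rule: all 34 genes, those called in full; up to 4 called genes of each other list and comparison by fold change, plus Atf4, Ddit3, Atf3, Trib3, Chac1 and Sesn2; and promoters of the 5 genes called in Eos against EoP with the largest change and the element, plus Asns. Sequences are RefSeq's; 1 of the 25 windows was matched through a synonym, and 9 genes had none.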

Additional observations from a re-analysis of the deposited data

How the results depend on the processing

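For Eos against EoP, 1 gene rose in the main analysis and under every alternative run, Slc7a11 each time. The number that fell was 18 in the main analysis and 17 to 22 under 11 alternatives. It was 28 of 33 tested on the authors' RPKM with a pseudocount of 0.5 or 0.1, for genes with RPKM of at least 1 in 2 libraries. There the median of all genes moved from 0.02 to −0.54 and −0.61. That of the members moved from −0.95 for 34 genes to −1.36 and −1.48 for 33. On unfiltered RPKM 22 of the 34 fell, with a median of −1.28, and the median of all genes was −0.0. Of the 18, 17 or 18 were kept in each of these settings. More fell without Eos replicate 1 and fewer without any other single library, as over all genes tested. With each library left out in turn, the median of the 34 genes ranged from −1.29 (without Eos replicate 1) to −0.74 (without Eos replicate 2). For Eos against GMP, 21 to 29 genes fell under the alternatives, and 14 to 25 with a library left out. For EoP against GMP the numbers were small: 2 rose and 3 fell in the main analysis, 4 rose and 5 fell when only the compared groups were fitted, 5 fell with no filter and 6 fell with library size alone, where the median of all genes moved from −0.07 to −0.53. With a library left out, from 1 to 5 rose and from 0 to 5 fell; leaving out EoP replicate 2 or either GMP library left 0. Where 1 library of a cell type remains, it is assumed to vary like the others. Among all called genes, the share that rose from GMP to EoP was 35.7%, and 25.2% with upper quartile factors, 14.3% with library size alone and 87.0% on log2(RPKM + 0.5); from EoP to Eos it was 51.8%, and 24.9% on log2(RPKM + 0.1). Between GMP and Eos it was 41.7%, and 23.0% with library size alone. No call of the 34 genes changed direction. The cause of these shifts was not tested.

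The replicate number as a block gave 2 genes that rose and 3 that fell for EoP against GMP, 1 and 18 for Eos against EoP and 1 and 23 for Eos against GMP; Pycr1 was the call lost. Deviations of same-numbered libraries correlated at −0.0995 (GMP and EoP), −0.0849 (EoP and Eos) and 0.0194 (GMP and Eos). The titles give only the number, and correlations over 2 libraries per cell type cannot tell whether same-numbered libraries shared a sort day or pool. Of 34 genes, 27 to 34 kept a promoter peak under stricter or wider peak rules: at a −log10 q of at least 10, 33, 29 and 27 did in GMP, EoP and Eos. Counting only peaks annotated to the gene alone, an alternative chosen after seeing the data, left 28 in each list.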
